A study of Mus musculus with 6 samples.

Results

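Open chromatin at the genes of the antigen presentation machinery was examined by ATAC-seq in tumor-infiltrating CD8 T cells. The set holds 32 genes, listed by name: class I molecules, the proteins that cut, transport and load their peptides, the transcriptional regulators of class I and class II genes, and class II molecules. A region of the count table belonged to the set when its midpoint lay inside one of these genes, or lay between genes with one of them as the nearest protein-coding gene within 100 kb. This gave 104 of 74686 regions, of which 46 lay within 2 kb of an end of their gene and 58 farther away. In all, 28 of the 32 genes had a region. B2m, H2-Q4, H2-Q6 and H2-Q7 had none by this rule and are described separately below.

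All libraries were made from OT1 cells, CD8 T cells with a transgenic receptor specific for ovalbumin. They were sorted on CD8 and CD45.1, a congenic marker, out of B16-OVA-GP61 tumors, which grow from mouse melanoma cells that express ovalbumin and the GP61 epitope. In the first group (3 libraries) no SMARTA cells were present, and in the second (3 libraries) SMARTA CD4 T cells, whose transgenic receptor sees GP61, were present as well. Tumor line, OT1 cells and sort are common to both groups, and no label gives the age of the mice, the time after transfer or whether a library came from 1 mouse or several. The p-values therefore measure the spread between these libraries, which may be technical.

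Nearly all nucleated cells display peptides of their own proteins on class I molecules, which consist of a polymorphic heavy chain and the light chain beta-2 microglobulin. Proteins are cut by the proteasome, whose catalytic subunits are exchanged for those of the immunoproteasome after interferon gamma. The TAP transporter carries the peptides into the endoplasmic reticulum, where trimming enzymes and chaperones fit them to the heavy chain. NLRC5 drives class I genes and CIITA drives class II genes, and both act through factors that sit on a conserved promoter module with an X box and a Y box. Interferon response elements and kappaB sites lie next to that module. Mouse T cells carry class I on their surface, whereas class II belongs mainly to dendritic cells, macrophages and B cells.

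The bases upstream of the starts of H2-K1, H2-D1, H2-M3 and B2m are shown because these are the genes whose start regions, or region next to the start, opened in the comparison below. They come from RefSeq promoter windows of GRCm38.p6, in which 24 of the 32 genes had an entry. Each window holds 300 bases, 250 before the annotated start and 50 from the start on. The searches and alignments below used the whole window. Only the 250 bases before the annotated start are printed, 5′ to 3′ on the strand of the gene. H2-K1 had more than 1 window, and the one at the lowest coordinate was taken. Its start lies inside the gene interval used for distances, which reaches 34000619, so the bases printed for H2-K1 also lie inside that interval. Capitals mark matches to 6 motifs searched on both strands: a strict interferon response element (GAAANNGAAA), a relaxed one with an A less (GAANNGAAA), a kappaB site (GGGNNTTCCC), an X1 core (CCNNGCAAC), an X2 core (TGACG) and a Y box (ATTGG).
H2-K1, chr17:34000334-34000583, minus strand: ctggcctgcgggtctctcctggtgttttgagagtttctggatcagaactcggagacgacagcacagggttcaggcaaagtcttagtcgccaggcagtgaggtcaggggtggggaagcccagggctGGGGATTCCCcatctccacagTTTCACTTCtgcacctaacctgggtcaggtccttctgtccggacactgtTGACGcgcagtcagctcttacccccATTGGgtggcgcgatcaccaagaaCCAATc
H2-D1, chr17:35262844-35263093, plus strand: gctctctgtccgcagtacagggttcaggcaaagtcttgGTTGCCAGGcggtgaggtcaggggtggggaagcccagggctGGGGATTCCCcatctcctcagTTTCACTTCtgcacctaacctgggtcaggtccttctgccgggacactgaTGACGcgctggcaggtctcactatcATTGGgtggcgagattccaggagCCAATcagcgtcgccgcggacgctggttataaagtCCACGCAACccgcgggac
H2-M3, chr17:37269984-37270233, plus strand: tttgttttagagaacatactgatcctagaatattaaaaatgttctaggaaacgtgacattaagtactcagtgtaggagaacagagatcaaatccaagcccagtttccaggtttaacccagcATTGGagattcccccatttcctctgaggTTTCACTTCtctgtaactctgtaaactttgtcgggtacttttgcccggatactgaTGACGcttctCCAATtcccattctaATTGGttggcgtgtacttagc
B2m, chr2:122147437-122147686, plus strand: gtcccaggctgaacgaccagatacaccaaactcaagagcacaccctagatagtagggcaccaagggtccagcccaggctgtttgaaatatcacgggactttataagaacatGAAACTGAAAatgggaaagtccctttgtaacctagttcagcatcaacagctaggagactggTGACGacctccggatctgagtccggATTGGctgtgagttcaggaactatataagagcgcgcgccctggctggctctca

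In H2-K1 the kappaB match began 125 bases before the annotated start, followed by the relaxed interferon element at 104, the X2 core at 55 and a Y box at 30. H2-D1 held the same matches in the same order and spacing, at 171, 150, 101 and 76 bases before its start. Over 253 aligned bases the H2-K1 and H2-D1 windows were 87.7% identical. H2-M3 shared the relaxed element (101), the X2 core (46) and Y boxes, without a kappaB match. B2m instead held the strict element at 139, an X2 core at 78 and a Y box at 53. Of all 32817 promoter windows of 300 bases, 3.43% held the strict element, 7.52% the relaxed one, 1.76% the kappaB site, 4.85% the X1 core, 20.8% the X2 core and 37.4% the Y box. Among the 24 windows of the set the counts were 5, 7, 6, 1, 13 and 19 in the same order. A match describes letters only and shows no binding.

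Shorter stretches show the interferon element, in capitals with 10 bases on each side, in 5 further genes whose regions are compared with those above. In Psme1 the element lies after the annotated start, and in Erap1 it runs across the start.
H2-T22, strict: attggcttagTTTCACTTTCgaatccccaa
H2-T23, strict: atcctactgcTTTCTCTTTCataaagacac
Psme1, strict: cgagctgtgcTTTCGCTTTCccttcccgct
Erap1, strict: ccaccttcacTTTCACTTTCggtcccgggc
H2-Q7, relaxed: atctccccagTTTCACTTCtgctcctaac

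Accessibility was expressed as log2 CPM (counts scaled to library size, on the log2 scale with a prior count of 2), and a log2 fold is the level with SMARTA minus the level without. Regions were tested with edgeR's quasi-likelihood test over all 74686 regions, with Benjamini-Hochberg adjustment and a threshold of 0.05. A region that passed is called opened when its fold is positive and closed when it is negative. All 104 regions passed the filter on low counts, which removed 0 regions of the table. Of these, 4 opened and 8 closed, against 4.68% opened and 10.4% closed among all regions. Near gene ends, 4 of 46 opened and 3 closed, where 5.12% of all such regions opened and 3.92% closed. Away from the ends, 0 of 58 opened and 5 closed, against 4.49% and 12%. DESeq2 opened 1 of the 58, and 2 had a positive fold at an unadjusted p under 0.05. The counts for the whole set are thus close to the shares of the table. Each of the 4 opened regions belonged to a class I heavy chain. The libraries of the groups did not overlap in level at 32 of the 104 regions, against 25512 of all 74686. Near gene ends they did not overlap at 19 of 46, against 5695 of all 17355 such regions.

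Read totals over the table were 16595779 to 27182809 per library, and the set took 35599 to 59843 of them, and its median region had 111.5 to 220.0 counts. Replicate 2 with SMARTA stood apart from its group, with correlations across regions of 0.946 and 0.958 to its group mates where the other within-group values were 0.968 to 0.984. Without it, 6 regions of the set opened and 9 closed, the same counts as when replicate 1 with SMARTA was left out instead. Over all regions the counts differed, with 4259 opened and 8410 closed without replicate 2 with SMARTA. Leaving out replicate 1 with SMARTA gave 3142 and 7211. Most strongly accessible regions near gene ends had small positive folds: of the 4759 such regions with a mean of at least 5.5 log2 CPM, a level picked to cover the strongest opened regions, 4427 had a positive fold, the median fold was 0.15, 13.1% opened and 0.441% closed. Of the set, 14 regions reached that level, 13 had a positive fold, the median was 0.17, and 3 opened. The cause of this shift was not tested. When folds were scaled along accessibility (loess offsets), the median of all regions near gene ends went from 0.08 to 0.01. Under that scaling 1 of the 4 regions, at H2-M3, stayed opened. Over all 17355 regions near gene ends, the opened ones went from 889 to 370. In bulk libraries a change in the share of some cells and a change within each cell cannot be told apart.

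H2-K1 encodes the classical heavy chain K. Its start region (chr17:34000181-34000581, midpoint 0.238 kb inside the gene end) was at 6.71, 6.69 and 6.76 log2 CPM in replicates 1 to 3 without SMARTA cells, and at 6.88, 7.14 and 7.06 with them. All libraries with SMARTA lay above all libraries without, and the replicates without SMARTA were the closer together. The fold was 0.31 ± 0.07 (SE), adjusted p = 0.0150. A weaker region inside the gene (chr17:33998772-33999172), at 4.32, 4.02 and 4.25 without and 4.59, 4.56 and 4.96 with SMARTA, opened by 0.52 ± 0.16 with adjusted p = 0.0494, just under the threshold. The intergenic regions 3.966 and 13.661 kb away had folds of 0.18 and 0.25, with adjusted p of 0.549 and 0.418. For the start region the call was lost without replicate 2 of the group without SMARTA (adjusted p = 0.0597), with DESeq2 (0.0501) and with loess offsets (fold 0.13, 0.152). The inner region passed in 4 of 13 alternatives and not with the replicate block (adjusted p = 0.0648), and its adjusted p was 0.0734, 0.174 and 0.126 when replicate 1, 2 or 3 without SMARTA was left out, and 0.0568 and 0.170 when replicate 1 or 3 with SMARTA was left out.

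H2-D1, the heavy chain D, had its start region (chr17:35262814-35263214) at 6.55, 6.54 and 6.45 log2 CPM without and 6.65, 6.94 and 6.93 with SMARTA. The groups did not overlap, although replicate 1 with SMARTA stood only slightly above the highest library without. The fold was 0.33 ± 0.08, adjusted p = 0.0220. The remaining 4 regions of H2-D1 all had positive folds, from 0.24 to 0.54, and none passed, the nearest to the threshold being the wide region 2.701 kb from the far end of the gene at adjusted p = 0.0689. Leaving out replicate 2 or 3 without SMARTA, or replicate 3 with SMARTA, gave adjusted p of 0.0591, 0.0970 and 0.0720 for the start region, DESeq2 gave 0.0580, total counts 0.0527, a mean count of at least 50 gave 0.0531, and loess offsets gave a fold of 0.16 with 0.164. The call was kept in 6 of 13 alternatives. Because H2-K1, H2-D1 and the H2-Q genes resemble each other in sequence, reads of these starts may be shared between copies, and how such reads were counted is not given in the sources used here.

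The light chain gene B2m had a region over its start (chr2:122147398-122147798) whose midpoint falls inside the neighbouring gene Patl2, so the midpoint rule did not count it. Its levels were 6.36, 6.48 and 6.38 log2 CPM without and 6.60, 6.74 and 6.65 with SMARTA, with no overlap between the groups. It opened by 0.26 ± 0.07, adjusted p = 0.0231. The call was lost without replicate 1 or 3 of the group without SMARTA (adjusted p = 0.0678 and 0.105), with DESeq2 (0.0911) and with loess offsets (fold 0.10, 0.205). In every one of these alternatives the fold stayed positive.

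H2-M3, a non-classical heavy chain that presents N-formylated peptides, had 1 region, 0.725 kb inside the gene from its start (chr17:37270759-37271159). It read 5.66, 5.79 and 5.87 log2 CPM without SMARTA and 6.11, 6.20 and 6.21 with. The lowest library with SMARTA was well above the highest without. With a fold of 0.40 ± 0.08 and adjusted p = 0.00733 it was the opened region of the set with the smallest p. It passed in all 13 alternatives, among them the loess offsets (fold 0.28, adjusted p = 0.0157), with folds between 0.28 and 0.45. The printed bases upstream of H2-M3 were not covered by a region of the count table.

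**Figure D1:**
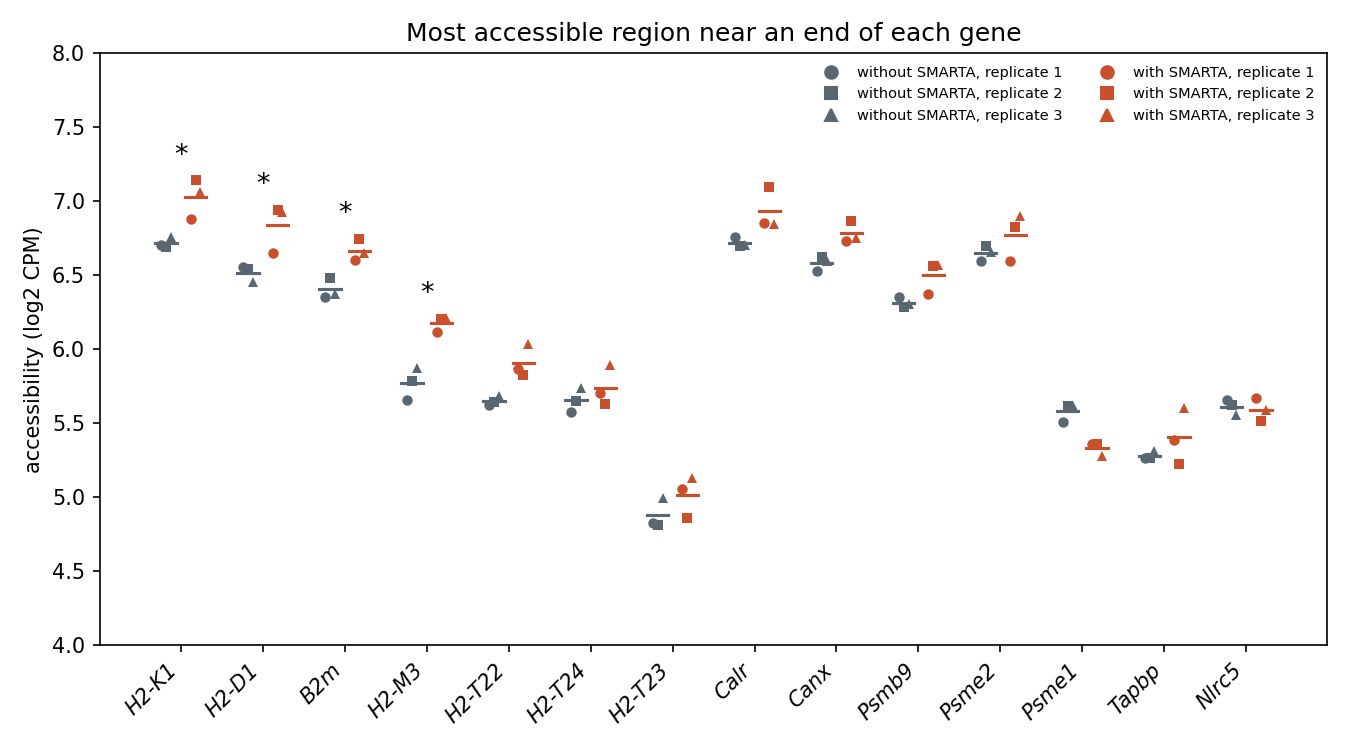
Accessibility (log2 CPM, vertical axis) in each of the 6 libraries at the most accessible region within 2 kb of an end of 14 genes of the set, where symbols mark the replicate, horizontal lines the group mean and a star an adjusted p under 0.05. H2-K1, H2-D1, B2m and H2-M3 stand higher in all 3 libraries with SMARTA than in any without. H2-T22, Calr, Canx and Psmb9 do so too and were not called, while the Nlrc5 start does not separate the groups.

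The non-classical genes of the T cluster did not follow one pattern. H2-T22, whose product is seen by some gamma-delta T cells, had a start region at 5.62, 5.64 and 5.68 log2 CPM without and 5.87, 5.83 and 6.03 with SMARTA. The groups did not overlap, but the fold of 0.26 ± 0.08 did not pass (adjusted p = 0.0520). The start regions of H2-T23, which encodes the Qa-1 molecule that presents class I leader peptides to NK receptors, and of H2-T24 had folds of 0.14 and 0.09 with adjusted p of 0.486 and 0.577. Some regions between these genes had negative folds. One lying 3.889 kb from H2-T23 (chr17:36025888-36026288) fell from 3.09, 3.21 and 3.29 to 2.19, 1.54 and 2.28, a fold of -1.17 ± 0.22 with adjusted p = 0.00699, and it passed in all 13 alternatives. Next to it, a region assigned to H2-T24 had a peak in 2 of 3 libraries without and 0 of 3 with SMARTA, with a fold of -1.15 and adjusted p = 0.0517. On the other side of H2-T24, 1.432 kb beyond the gene, a region (chr17:36001839-36002239) closed from 4.87, 5.51 and 5.52 to 4.63, 3.79 and 4.63. There replicate 2 with SMARTA was lowest, and the groups did not overlap. Its fold was -0.93 ± 0.23, adjusted p = 0.0242, and 0.0863 or 0.0937 without replicate 2 or 3 of the group without SMARTA. In all, the 25 class I regions had a median fold of 0.18, with 20 positive, against 0.01 over all regions, and the 10 near gene ends had a median of 0.29, against 0.08 over all end regions and 0.15 over the strongly accessible ones.

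H2-Q4, H2-Q6 and H2-Q7, of which H2-Q7 encodes a Qa-2 molecule, had no row in the count table used here. The peak lists of the single libraries nevertheless hold a peak over each of the 3 starts in all 6 libraries. At H2-Q7 the authors' fold enrichment was 13.6, 13.9 and 13.2 without and 13.5, 14.0 and 12.6 with SMARTA. H2-Q4 had 13.2, 15.1 and 14.0 without and 13.6, 14.8 and 13.3 with, and H2-Q6 stood lower, between 8.75 and 10.3 over the 6 libraries. For comparison, the peak over the H2-K1 start had 11.3, 11.9 and 11.7 without and 11.3, 12.8 and 10.2 with SMARTA. Within their own lists the H2-Q7 peaks ranked above 82.1% to 88.7% of peaks. The starts were open in every library, and no comparison between groups was made from these values, which are the authors' own and scaled within each list. The H2-Q6 and H2-Q7 windows are 97.7% identical over 260 aligned bases, so their reads may not be separable.

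The peptide transport, loading and trimming genes had 19 regions, of which 0 opened and 2 closed (against 4.68% opened and 10.4% closed over all regions), with a median fold of 0.12. With a positive fold, 3 had an unadjusted p under 0.05 in edgeR and DESeq2 opened 0. TAP1 and TAP2 form the peptide transporter. The Tap1 start shares its region with Psmb9, since both genes begin there in opposite directions, at 6.35, 6.29 and 6.30 log2 CPM without and 6.37, 6.56 and 6.57 with SMARTA. That region did not pass (fold 0.19 ± 0.07, adjusted p = 0.104), and neither did the Tap1 region at the other end of the gene (fold 0.25, adjusted p = 0.220). Upstream of Tap2, 0.988 kb from the gene, a region (chr17:34203291-34203691) closed from 5.01, 4.89 and 4.94 to 4.42, 3.96 and 4.60. All libraries without SMARTA were above those with. Its fold was -0.59 ± 0.16, adjusted p = 0.0345, while the region over the Tap2 end itself read 4.61, 4.38 and 4.51 against 4.45, 4.49 and 4.69, a fold of 0.04. Leaving out 1 library raised the adjusted p of the closed Tap2 region to 0.0987, 0.0837 and 0.105 for replicates 1, 2 and 3 without SMARTA and to 0.0587 for replicate 1 with SMARTA.

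The lectin chaperones calreticulin (Calr) and calnexin (Canx), which hold new heavy chains, had strongly accessible starts. Calr stood at 6.76, 6.70 and 6.70 log2 CPM without and 6.85, 7.10 and 6.85 with SMARTA, and Canx at 6.53, 6.62 and 6.59 against 6.73, 6.87 and 6.75. In neither did the groups overlap, yet neither fold passed (0.22 ± 0.07, adjusted p = 0.0739, and 0.20 ± 0.06, adjusted p = 0.0503). The start of Pdia3, the thiol oxidoreductase ERp57 of the loading complex, lies in the neighbouring gene Catsper2 and did not pass (fold 0.04 ± 0.06). Tapbp, which encodes tapasin, the bridge between TAP and the heavy chain, and Tapbpl, which encodes the peptide editor TAPBPR, had folds of 0.14 and 0.05 at their starts with adjusted p of 0.448 and 0.744. Erap1, the aminopeptidase that trims peptides in the endoplasmic reticulum, did not pass at its start (fold 0.12, adjusted p = 0.482). A weak region 8.476 kb inside Erap1 (chr13:74647849-74648249) closed from 1.37, 2.03 and 1.58 to -0.74, 0.67 and 0.36. It had a peak in 2 of 3 libraries without and 0 of 3 with SMARTA. The fold was -1.56 ± 0.34, adjusted p = 0.0136, which became 0.0621 when replicate 2 without SMARTA was left out and 0.0504 when replicate 3 with SMARTA was.

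The immunoproteasome subunits and the activator PA28 had 8 regions, of which 0 opened and 1 closed (against 4.68% opened and 10.4% closed over all regions), with a median fold of -0.06. At an unadjusted p under 0.05 edgeR had 1 with a positive and 3 with a negative fold, and DESeq2 opened 0 and closed 2. Psmb9 encodes the subunit LMP2. A region 1.945 kb beyond its end (chr17:34179885-34180285) was at 4.69, 4.47 and 4.50 log2 CPM without and 3.68, 2.76 and 3.51 with SMARTA. Every library with SMARTA was lower than every library without, and replicate 2 was the lowest. The fold of -1.19 ± 0.22 had an adjusted p of 0.00635 and passed in all 13 alternatives. Psmb8, the subunit LMP7, did not differ detectably at its start (5.39, 5.36 and 5.36 against 5.37, 5.34 and 5.53, fold 0.05, adjusted p = 0.768). A region 0.428 kb beyond its other end, toward the closed Tap2 region, fell short of the threshold (fold -0.52 ± 0.16, adjusted p = 0.0507). Psmb10, the third exchanged subunit, had 1 region, at 4.35, 4.27 and 4.27 without and 4.22, 4.18 and 4.01 with SMARTA. The groups did not overlap, but the fold of -0.16 did not pass (adjusted p = 0.509).

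**Figure D2:**
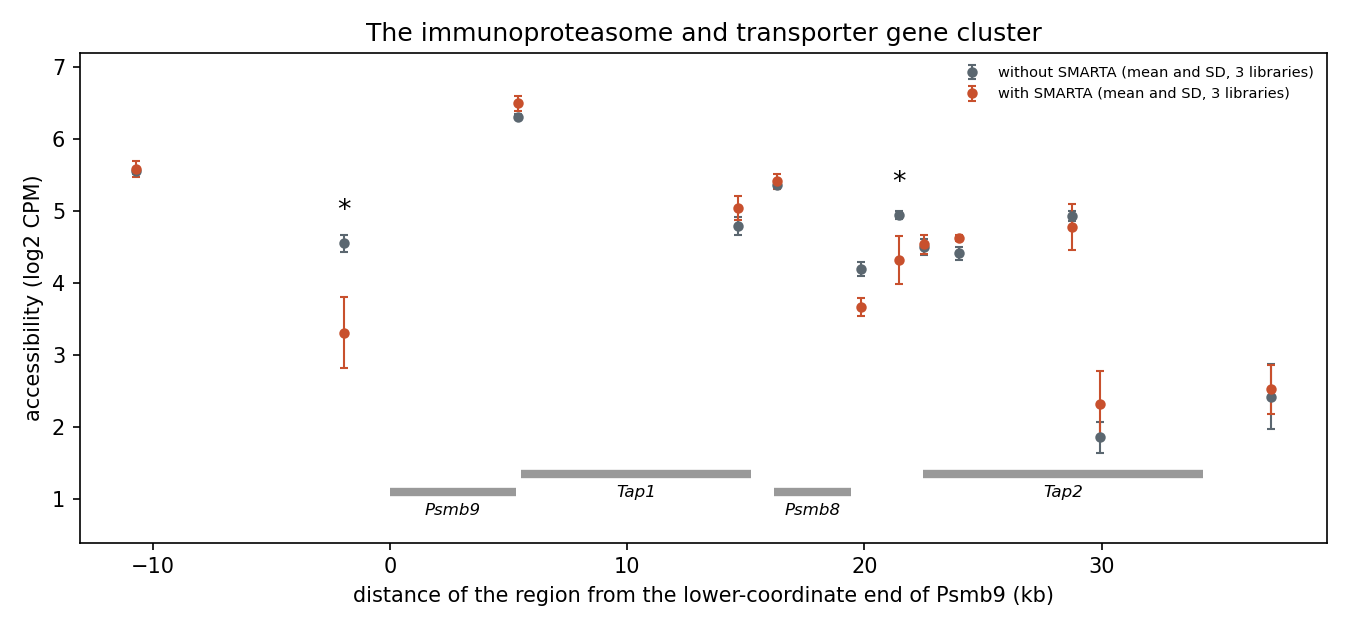
Mean accessibility and SD over 3 libraries (log2 CPM, vertical axis) of the regions assigned to Psmb9, Tap1, Psmb8 and Tap2 by their distance from the lower-coordinate end of Psmb9 (kb, horizontal axis), with genes as grey bars and a star for adjusted p under 0.05. The region 1.945 kb outside Psmb9 and the one 0.988 kb outside Tap2 are lower with SMARTA, and the shared start of Psmb9 and Tap1 is the most accessible and was not called.

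PSME1 and PSME2 are the alpha and beta chains of PA28, a cap that opens the proteasome, and their starts differed in sign. Psme1 stood at 5.51, 5.62 and 5.62 log2 CPM without and 5.36, 5.36 and 5.28 with SMARTA. All libraries with SMARTA were below all libraries without. Its fold was -0.25 ± 0.08, adjusted p = 0.0696. Psme2 stood at 6.60, 6.69 and 6.66 without and 6.60, 6.83 and 6.90 with SMARTA, and the groups overlapped (fold 0.13, adjusted p = 0.310).

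A second fit summed the counts of all regions within 2 kb of either end of a gene and tested 13657 genes, 28 of the set among them. This fit is scaled on regions near gene ends, and the median fold was 0.00 over all genes and 0.02 over the 28. Such centring does not remove a shift that varies with accessibility. With loess offsets (edgeR) the H2-K1 sum had a fold of 0.18 (adjusted p = 0.136). The sums of H2-M3 and Psme1 had 0.28 (adjusted p = 0.0326) and -0.35 (adjusted p = 0.0152) with these offsets. Raised sums numbered 2, against 1.13% of all genes, and lowered sums 1, against 2.92%. H2-M3 rose by 0.31 ± 0.06 (adjusted p = 0.0212) and H2-K1 by 0.25 ± 0.06 (adjusted p = 0.0489). Psme1, whose sum is its single start region, fell by 0.34 on the log2 scale (SE 0.07, adjusted p = 0.0177), with 6.19, 6.22 and 6.23 without and 5.91, 5.87 and 5.84 log2 CPM with SMARTA. The sums of H2-D1 and B2m had folds of 0.24 and 0.13 and did not pass (adjusted p = 0.106 and 0.145), nor did that of H2-T24 (fold -0.36, adjusted p = 0.0880). The H2-M3 call was lost without replicate 1 or 2 of the group without SMARTA or replicate 3 of the group with them (adjusted p 0.0765, 0.0842 and 0.0886). The Psme1 call was lost without replicates 2 or 3 without SMARTA or replicate 3 with SMARTA (0.0737, 0.0855 and 0.0793), and the H2-K1 sum passed in 4 of 13 alternatives, with adjusted p up to 0.181 when replicate 2 without SMARTA was left out and 0.0990, 0.115, 0.0794 and 0.164 without replicates 1 and 3 without and 2 and 3 with SMARTA.

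Among the regulators, which had 33 regions, 0 opened and 3 closed (against 4.68% opened and 10.4% closed over all regions), and the 3 lay in Nlrc5. With a positive fold 0 had an unadjusted p under 0.05 in edgeR, and DESeq2 opened 0. NLRC5 is the class I transactivator. Its gene was assigned 22 regions, more than any other gene of the set. The region over its lower-coordinate end was at 5.66, 5.62 and 5.55 log2 CPM without and 5.67, 5.51 and 5.59 with SMARTA, and the groups overlapped (fold -0.02 ± 0.08, adjusted p = 0.899). Inside the gene, 14.096 kb from that end, a weak region (chr8:94448231-94448631) fell from 2.13, 1.93 and 2.06 to 1.02, -0.41 and 0.14. It had a peak in 3 of 3 libraries without and in 0 of 3 with SMARTA. The fold of -1.73 ± 0.31, adjusted p = 0.00506, was the most negative of the 104 and passed in all 13 alternatives.

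A neighbouring Nlrc5 region at 13.402 kb (chr8:94447537-94447937) closed from 4.18, 4.67 and 4.46 to 4.02, 3.08 and 3.26. Replicate 1 with SMARTA stood close to the lowest library without. Its fold was -0.95 ± 0.25, adjusted p = 0.0292, and 0.110, 0.0874 or 0.112 without replicate 2 or 3 of the group without SMARTA or replicate 3 of the group with them. The third, at 19.967 kb (chr8:94454102-94454502), is one of the most accessible inside the gene and closed from 5.22, 5.36 and 5.15 to 4.66, 3.96 and 4.64. With SMARTA all libraries were lower, replicate 2 most of all. Its fold was -0.79 ± 0.18, adjusted p = 0.0141, which rose to 0.0590 when replicate 2 without SMARTA was left out. At 24.471 kb, a region of like height read 4.98, 4.97 and 4.74 without and 5.00, 3.75 and 4.77 with SMARTA, so that only replicate 2 was low (fold -0.30, adjusted p = 0.475). In all, 19 Nlrc5 regions did not pass, and their folds ran from -0.68 to 0.06.

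**Figure D3:**
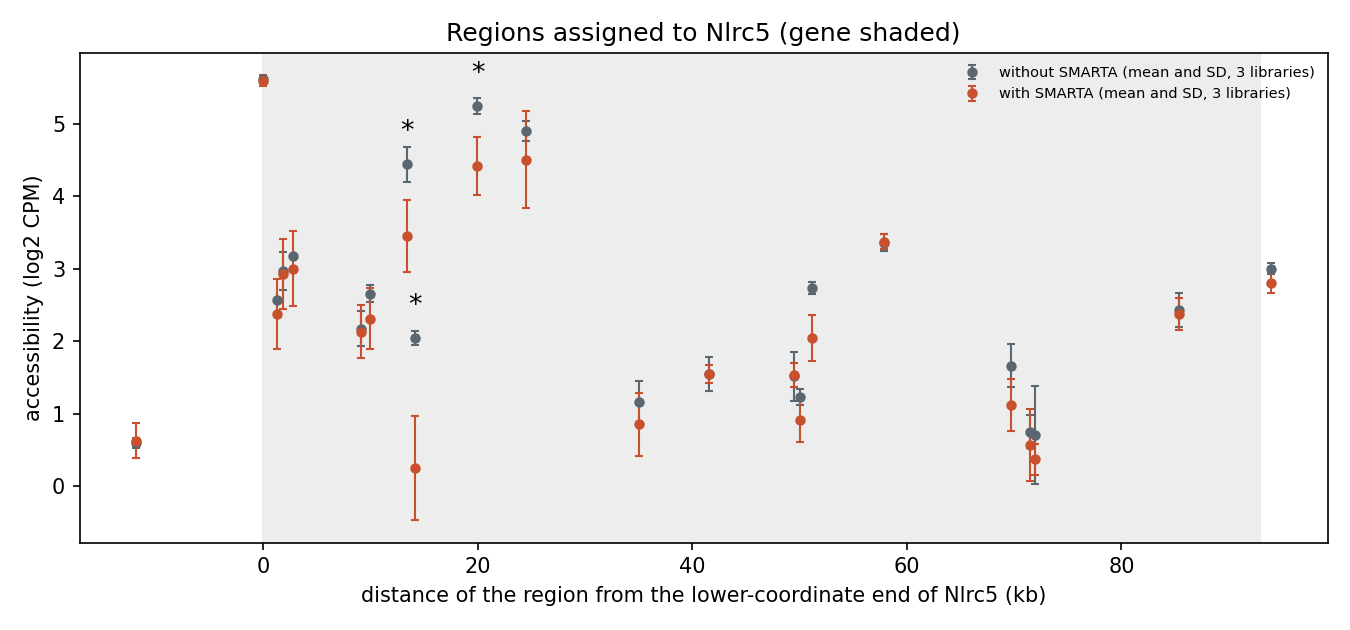
Mean accessibility and SD over 3 libraries (log2 CPM, vertical axis) of the 22 regions assigned to Nlrc5 by distance from the lower-coordinate end of the gene (kb, horizontal axis), with the gene shaded and a star for adjusted p under 0.05. The end region did not differ detectably between the groups, and the 3 closed regions lie between 13.402 and 19.967 kb into the gene.

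RFX5, RFXAP and RFXANK make up the complex that binds the X box and recruits NLRC5 or CIITA. Their 7 regions had folds between -0.19 and 0.20, and none passed. The most accessible, over the Rfxank start, read 6.07, 6.10 and 6.12 log2 CPM without and 6.13, 6.32 and 6.29 with SMARTA (fold 0.15, adjusted p = 0.198). At Rfx5 the region over the promoter window read 6.01, 5.97 and 6.08 against 6.16, 6.05 and 6.02. It lies 3.373 kb inside the gene interval. The Rfx5 region within 2 kb of an end was weaker, at 3.31, 3.60 and 3.30 without and 3.66, 2.41 and 3.32 with SMARTA. At the Rfxap start the levels were 5.61, 5.70 and 5.75 against 5.83 in each library with SMARTA. Ciita, the class II transactivator, had 4 weak regions inside the gene and none within 2 kb of its ends. The strongest of these read 3.33, 2.52 and 2.90 without and 3.27, 3.09 and 3.28 with SMARTA (fold 0.27, adjusted p = 0.477). The most accessible region of each RFX gene therefore stood above every Ciita region in both groups, with no Ciita region near an end to compare.

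The class II genes had 19 regions, of which 0 opened and 0 closed with edgeR (against 4.68% opened and 10.4% closed over all regions). DESeq2 also called 0, and 0 had an unadjusted p under 0.05. Most of these regions were weak, with a median level of 2.26 log2 CPM against 3.69 for class I regions. The exception was the region over the lower-coordinate end of H2-Ab1, the beta chain of I-A, at 4.65, 4.61 and 4.55 without and 4.75, 4.67 and 4.62 with SMARTA (fold 0.08, adjusted p = 0.727). H2-Aa, the alpha chain, read 2.60, 1.63 and 2.20 against 2.62, 2.28 and 2.17 at its start, and H2-Eb1, the beta chain of I-E, 2.82, 2.00 and 2.39 against 2.57, 2.41 and 2.14. Cd74, the invariant chain that guides class II molecules to the endosome, read 3.81, 2.74 and 2.79 against 3.53, 1.91 and 2.03 next to its start (fold -0.51 ± 0.44, adjusted p = 0.490).

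Class II accessibility differed more between replicates than between groups. Summed over the 19 regions and divided by their number, it was 7.66, 5.06 and 5.45 CPM per region without and 6.98, 5.42 and 5.21 with SMARTA, so that replicate 1 was the highest in both groups. Near their ends, the dendritic cell genes Flt3 and Zbtb46 were also highest in replicate 1 of both groups, at 4.13, 3.04 and 2.90 log2 CPM against 3.75, 3.15 and 2.90 for Flt3 and 3.55, 2.46 and 2.62 against 2.83, 2.02 and 1.89 for Zbtb46. The other 3 markers of that list with a sum were not highest in replicate 1 with SMARTA, where Csf1r read 0.49, 2.27 and 0.97, Cd68 6.97, 7.01 and 7.10, and Clec9a was highest in replicate 2, at 2.37 log2 CPM. The class II gene H2-Aa read 3.41, 3.42 and 3.30 with SMARTA. Of the 8 dendritic cell and macrophage markers, 6 had a region and Lyz2 and Xcr1 had none, and 0 of their 18 regions were called with edgeR, where 2 had a positive and 3 a negative fold at an unadjusted p under 0.05, and DESeq2 opened 1. Their summed level was 11.1 to 12.7 CPM per region without and 8.93 to 12.7 with SMARTA. Of the 5 B cell markers 3 had a region and Ms4a1 and Cd79a none, at 4.44 to 5.78 CPM per region without and 3.49 to 4.65 with SMARTA, replicate 1 again being the highest in both groups, and 0 of their 18 regions opened and 2 closed with edgeR (2 had a positive fold at an unadjusted p under 0.05, and DESeq2 opened 1), with a median fold of -0.33. Over all 21 regions the stroma and endothelium markers were lower in every library with SMARTA. They read 9.45, 8.94 and 9.58 CPM per region without and 6.83, 6.17 and 6.27 with SMARTA. Near gene ends they overlapped, at 11.5, 13.5 and 12.0 against 12.0, 11.5 and 12.6. Of the 21, 4 closed, all in Pecam1, while 0 opened (edgeR, with 1 higher at an unadjusted p under 0.05, and 0 with DESeq2). Pecam1 held 12 of the 21 regions, and 4 of the 21 had a positive fold. At their regions of smallest p the other markers had folds of 0.94 (Pdgfra), 0.07 (Cdh5), -0.0001 (Col1a2) and -0.10 (Col1a1), and none passed. Melanoma and melanocyte markers read 20.5 to 21.9 CPM per region without and 21.8 to 24.1 with SMARTA. Of their 13 regions edgeR called 0 and DESeq2 opened 1. CD4 T cell markers read 13.7 to 15.3 and 14.9 to 16.7, and 1 of their 9 regions closed. The part of any of these cells in the signal of the set was not tested. The T cell markers Cd3e and Cd8a were strongly accessible in all libraries, with 6.86 to 7.17 log2 CPM summed near the ends of Cd3e and 5.70 to 6.59 near those of Cd8a. Of the 56 regions of CD8 T cell markers 1 opened, at Cd8b1 (fold 0.59, adjusted p = 0.0221), and 4 closed. Among the closed ones were a region of Cd8a (fold -1.22, adjusted p = 0.00508) and a region of Cd3e (fold -1.23, adjusted p = 0.00352). The Cd8a sum, 6.36 to 6.59 without and 5.70 to 6.38 with SMARTA, had a fold of -0.39 (adjusted p = 0.132). Counts of all these marker lists are to be read against 4.68% opened and 10.4% closed over all regions.

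**Figure D4:**
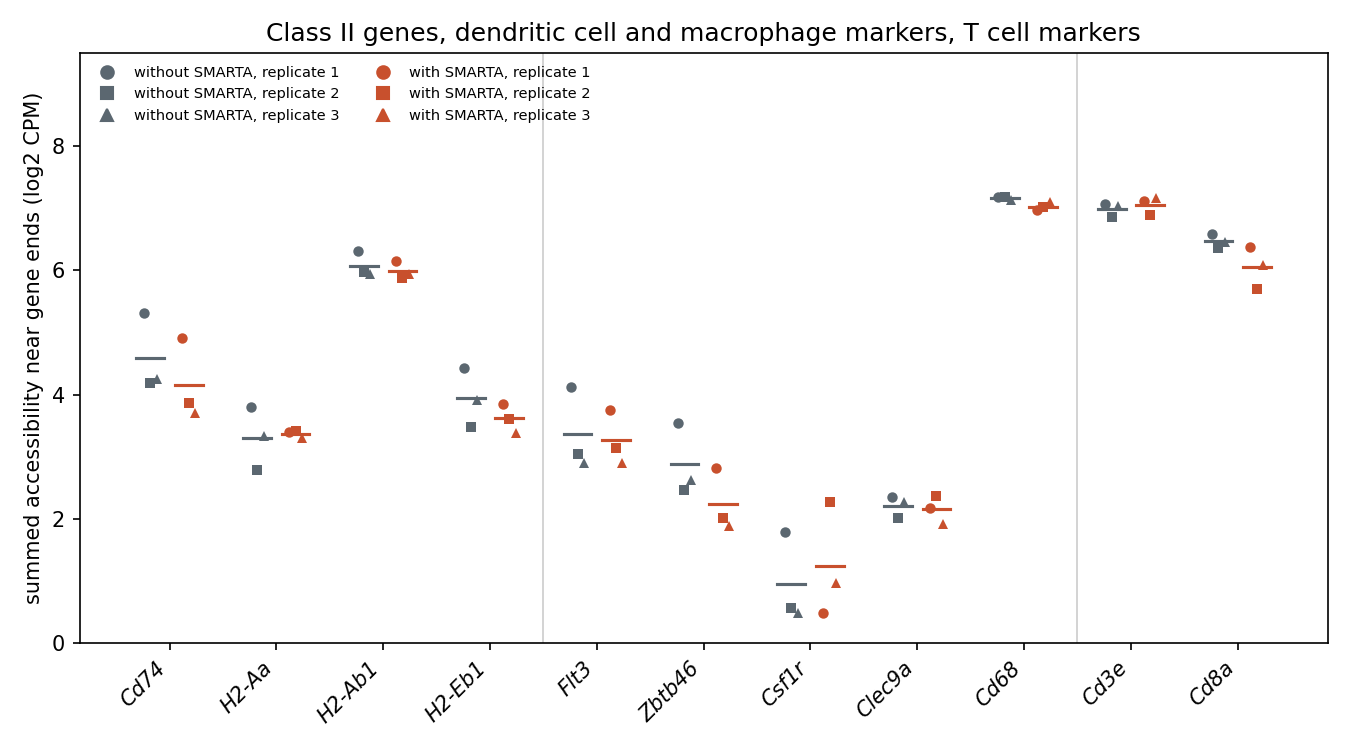
Summed accessibility of regions within 2 kb of the gene ends (log2 CPM, vertical axis) in each library for class II genes, dendritic cell and macrophage markers and T cell markers, with symbols for the replicate and horizontal lines for group means. Replicate 1 is the highest of its group for Cd74, H2-Ab1, H2-Eb1, Flt3 and Zbtb46 in both groups, but with SMARTA it is not for H2-Aa, Csf1r, Clec9a and Cd68. Cd3e stays between 6.86 and 7.17, and Cd8a ranges from 5.70 to 6.59.

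Genes of the same pathways outside the set were counted for context, to be read against 4.68% opened and 10.4% closed over the table. Other class I and class I-like molecules had 42 regions, 2 opened and 5 closed, led by a weak region of Hfe, the partner of transferrin receptor, which fell from 2.34, 2.52 and 2.47 to 0.21, -0.01 and 0.23 log2 CPM (fold -2.38 ± 0.20, adjusted p = 0.00025). Other class II and endosomal processing genes had 41 regions, 1 opened and 3 closed. There an intergenic region nearest to Ctss, the protease that trims the invariant chain, opened from 4.78, 4.63 and 4.65 to 5.20, 5.07 and 5.37 (fold 0.54 ± 0.12, adjusted p = 0.0127). The sum near the ends of Ctss had a fold of -0.35 and did not pass (adjusted p = 0.290). The constitutive proteasome had 19 regions with 0 opened (1 with a positive fold at an unadjusted p under 0.05, and 0 with DESeq2) and 2 closed, both in Psmb7. Other folding and loading factors had 37, with 4 opened and 2 closed, and the start of Lnpep, the endosomal aminopeptidase of cross-presentation, opened by 0.30 ± 0.05 (adjusted p = 0.00555). With loess offsets 0 of the 6 end regions of these factors opened, in place of 2.

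Factors that act with or upstream of the regulators had 203 regions, 12 opened and 41 closed. Of these closed regions 12 lay in or near Irf8 and 11 in or near Irf2. The strongest of Irf8, an interferon regulatory factor, fell from 5.39, 4.92 and 5.19 to 3.48, 1.89 and 2.55 (fold -2.40 ± 0.33, adjusted p = 0.00124), and its sum near the gene ends fell by 0.63 on the log2 scale (adjusted p = 0.0106). In Ifngr1, the ligand-binding chain of the interferon gamma receptor, the region with the smallest p opened from 4.50, 4.38 and 4.34 to 5.04, 4.91 and 5.14 (fold 0.63 ± 0.12, adjusted p = 0.00692), while 4 others of its 27 closed and 2 in all opened.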

How the data were processed

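ATAC-seq was performed on sorted cells that had been frozen, with paired-end reads, per the labels' protocols. Per the submitters' processing notes the build was GRCm38 and the tools were DiffBind 3.4.11, MACS2 2.1.1, Picard 2.18.9, SAMtools 1.8 and BWA 0.7.17. How reads were counted, shifted for the transposase or cleared of duplicates is not given in the sources used here. The deposited table holds raw counts of 74686 regions in 6 libraries, and the authors also deposited a peak list per library with a score, a fold enrichment, and −log10 p and −log10 q values, used here only to describe peaks.

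Genes came from RefSeq (GRCm38.p6), without strand, exons or UTRs. The members and the pathway and marker lists were chosen with earlier results of these data known. Counts were tested with edgeR 4.0.16 in R 4.3.3 (TMM, filterByExpr, quasi-likelihood, Benjamini-Hochberg), with SE taken as the fold divided by the root of F. The code was tested on simulated data. Alternatives were DESeq2 1.42.0, other scalings and filters, a replicate block, other gene-end distances and leaving out each library. Because the low count filter removed 0 regions, the alternative without it repeats the main fit, and the tallies out of 13 include it. By rule, values per library are given for every called region and for the most accessible end regions of genes that define a role. Pathway lists are given as counts, with a called region of smallest p. Further regions near a named one were added after their values were seen. Total counts were 16595779 to 27182809, and the biological coefficient of variation was 18.0%.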

Additional observations from a re-analysis of the deposited data

How the results depend on the processing

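None of the called regions, the B2m region or the 3 called sums changed sign under any alternative, and other regions were not followed one by one. The median fold of the set's 58 regions away from gene ends was -0.0015, against -0.0214 over all such regions of the table. For the set this median became 0.035 with loess offsets, 0.0064 with DESeq2 size factors and 0.0051 with the replicate block. In the main fit 3497 of all 74686 regions opened and 7767 closed, 889 and 680 of them near gene ends. With total-count scaling, 2 regions of the set opened and 13 closed, of which 2 and 5 near gene ends, and 1 gene had a raised sum. Over all regions this scaling gave 2615 opened and 8197 closed, 466 and 746 near gene ends. With loess offsets along accessibility 1 region of the set opened and 13 closed, 1 and 5 of them near gene ends, with 1 raised sum. Over all regions 3676 opened and 7550 closed with these offsets, 370 and 763 near gene ends. A mean count of at least 50 left 2 of the set opened, 2 near gene ends, and 12 closed, 5 of them there, with 1 raised sum. Over the 54132 regions it kept, 2724 opened and 5710 closed, 550 and 580 near gene ends. DESeq2 gave 3 opened and 12 closed regions of the set, 2 and 4 of them near gene ends, with 3 raised and 2 lowered sums. Over all regions it gave 3543 opened and 8244 closed, 477 and 752 near gene ends. DESeq2 size factors in edgeR gave 1 raised sum. With ends of 1 kb, 1 end region closed and 1 sum was raised, and with ends of 5 kb 0 sums were lowered. With the gene start alone 0 end regions closed and 1 sum was raised. For that alternative the strand was known only for genes with a promoter window, 24 of the 32. Tap2 and H2-T24 had no window, so their closed end regions could not be counted there. Shares of raised or lowered sums over all genes are not given for the alternatives. Leaving out 1 library gave 1 to 6 opened and 3 to 9 closed regions of the set, 1 to 6 and 1 to 3 near gene ends, 0 to 4 raised and 0 to 1 lowered sums. Over all regions, leaving out 1 library gave 1224 to 4259 opened and 4403 to 8410 closed, 192 to 1039 and 323 to 738 near gene ends. The causes were not tested, beyond the fewer samples in the last case.

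Replicate numbers are shared between the groups, but over all regions same-numbered libraries did not deviate together (r of -0.02, -0.0776 and 0.0764), and they were treated as sharing only a number, although Cd74, H2-Ab1 and H2-Eb1 were highest in replicate 1 of both groups. With the replicate block 3215 of all regions opened and 7260 closed, 1001 and 662 of them near gene ends. Of the set, 4 regions opened and 8 closed, 4 and 3 of them near gene ends, and 2 sums were raised and 2 lowered. The inner H2-K1 region was not among these (adjusted p = 0.0648). The lowest count of a region of the set in a library was 10, so depth limits the weak regions.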
